A study of Mus musculus with 12 samples.

Results

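The 10 genes described here are read as a panel of the ATF4 arm of the integrated stress response: Atf4, Atf5, Ddit3, Trib3, Asns, Nupr1, Sesn2, Psat1, Phgdh and Ppp1r15a. They were taken by symbol from the 55414 genes of a liver RNAseq counts table and occupied 11 rows, since Ddit3 is annotated under 2 Ensembl identifiers. One of these, ENSMUSG00000116429, had no read in any mouse and is not considered further. Of the 10 genes, 9 passed edgeR's filter on low counts, as did 13857 genes in all, and Phgdh did not.

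The integrated stress response is a shared reaction to amino acid shortage, unfolded protein in the endoplasmic reticulum (ER), mitochondrial stress, haem shortage and viral RNA. These stresses activate kinases that phosphorylate the translation initiation factor eIF2. General protein synthesis falls while the mRNA of the transcription factor ATF4 is translated more. ATF4 then acts on genes of amino acid supply, redox defence and cell fate, and one of its targets, Ppp1r15a (GADD34), directs a phosphatase back to eIF2. Much of this control acts on translation, which mRNA levels do not report.

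The livers came from adult female C57BL/6J mice, 3 in each of 4 groups, and neither a transgene nor a deletion was used. The first i.p. injection was 0.9% NaCl or 300 mg/kg FeSO4, an acute iron overload that the study describes as lethal, and the second, 6 h later, was PBS or 10 mg/kg dexamethasone (DEX), a synthetic glucocorticoid. Livers were collected after another 2 h, so all values belong to 8 h after the first injection. The groups are called NaCl/PBS, NaCl/DEX, FeSO4/PBS and FeSO4/DEX, and each library is 1 mouse.

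Reads on genes lay between 16335651 and 23827340 per mouse. Markers of hepatocytes were abundant in all 12 livers, none of the 8 at 0. Markers of neutrophils and Kupffer cells moved with FeSO4, and those of other cell types less uniformly. Of 6 sinusoidal endothelial markers 1 was higher and 3 lower, and of 6 stellate markers 2 were higher and 2 lower. Of 5 tested lymphocyte markers 1 was lower, of 4 cholangiocyte markers 1 was higher, and of 2 tested mesothelial markers 1 was lower. The summed normalized counts of 6 neutrophil markers ranged from 111.7 to 288.9 in NaCl/PBS and from 721.8 to 882.0 in FeSO4/PBS mice, and 4 of the 5 tested were higher. Those of 6 Kupffer cell markers ranged from 6353 to 7335 and from 3324 to 3929, and 6 of 6 were lower. No marker of either cell type was at 0 in all mice of these groups. Of the hepatocyte markers 5 of 8 were higher after FeSO4, with sums from 1964714 to 2308677 and from 2562426 to 2897997. The part of these shifts in the results was not tested. In whole liver, a change in the share of a cell type and a change in its RNA per cell cannot be told apart. FeSO4/PBS mouse 1 differed most from the other mice of its group, with a chi-square per gene of 90.1 and 71.7 in its 2 pairs, where the lowest of all pairs was 18.3. Calls that were lost without it, and some of the named values that it moved most, are also given without it.

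ATF4 binds with C/EBP partners to a composite DNA element written TGATGNAA here, where N is any base. Both strands were searched from 250 bases before to 50 after the canonical transcription start of each gene in GENCODE on GRCm39. The letters were found in 1 of the 10 genes, Ddit3, in 10 of 36 other tested targets of ATF4 and CHOP (27.8%) and in 356 of 13818 promoters of tested genes (2.58%). For the stricter TGATGCAA the shares were 1 of 10, 7 of 36 (19.4%) and 0.579%. The gene lists and the letters were chosen with earlier results of these data known, so these shares are a description. The windows below show the element in Ddit3 and, as examples chosen after their values were seen, in 5 of the 7 other targets with the stricter letters. Aars1 and Ddr2 hold these letters too, and Gars1, Gpt2 and Pck2 hold TGATGNAA with another base at N. Each is printed 5′ to 3′ on the strand of its gene, with 1 element in capitals (TTGCATCA is TGATGCAA read on the other strand). The window of Slc7a11 holds a second element, TTGCATCA, 46 bases upstream and left in lower case. A match of letters is not a measurement of binding, and a window without one shows only that the letters are not there.
Ddit3 (chr10:127126341-127126388, plus strand, 199 bases upstream): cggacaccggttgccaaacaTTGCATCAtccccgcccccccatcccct
Chac1 (chr2:119181510-119181557, plus strand, 159 bases upstream): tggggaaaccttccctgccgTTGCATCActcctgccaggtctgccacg
Atf3 (chr1:190915613-190915660, minus strand, 103 bases upstream): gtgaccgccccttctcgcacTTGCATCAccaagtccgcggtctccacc
Fgf21 (chr7:45265026-45265073, minus strand, 139 bases upstream): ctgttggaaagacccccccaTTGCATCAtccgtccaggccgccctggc
Slc7a11 (chr3:50398101-50398148, minus strand, 65 bases upstream): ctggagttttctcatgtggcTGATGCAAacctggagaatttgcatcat
Vldlr (chr19:27194200-27194247, plus strand, 192 bases upstream): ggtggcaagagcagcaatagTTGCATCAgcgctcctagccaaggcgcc

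FeSO4 raised 2 of the 9 tested genes, Atf4 and Ppp1r15a, and lowered none. Of all tested genes, 27.2% were called higher and 27.3% lower in the same comparison, so 2 of 9 higher (22.2%) was near the background. Genes were called at 0.05 or less after Benjamini-Hochberg adjustment over the 13857 genes, in the quasi-likelihood test of edgeR. The median log2 fold change (LFC) was 0.49 over the 9 genes and -0.02 over all genes. No gene of the 9 was lower at an unadjusted p under 0.05 (0 genes), and DESeq2 also called 0 lower. Over all genes, 4151 were lower at that p, and DESeq2 called 3718 lower. With libraries scaled by size alone, without TMM factors, the median of all genes moved to -0.34, the calls over all genes changed from 3770 higher and 3783 lower to 2285 and 5829, and Atf5, Ddit3 and Trib3 were then called lower. The directions of the 2 rises were the same under that scaling.

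**Figure D1:**
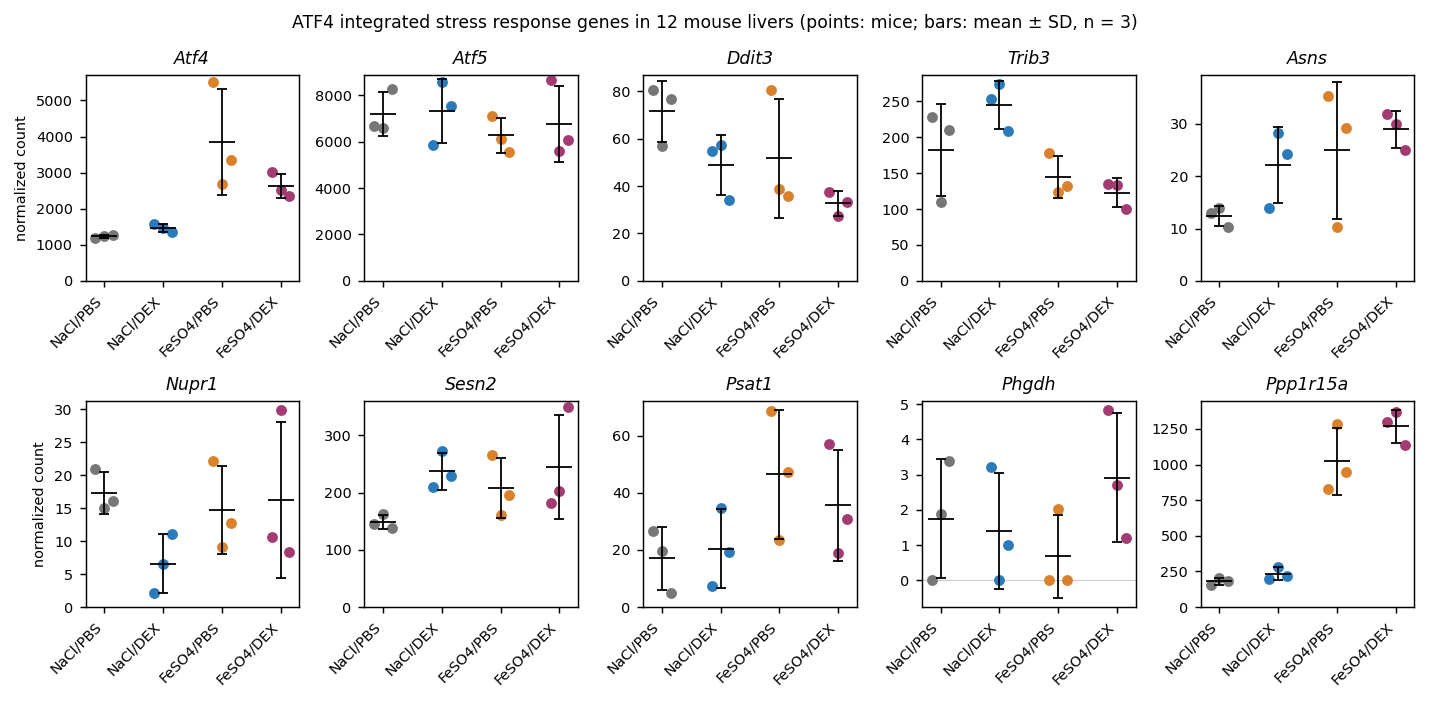
Normalized counts (linear axes, each from 0 or just below) of the 10 genes in the 4 groups, where each point is 1 mouse and the bars give the mean ± SD of 3 mice. Atf4 and Ppp1r15a of all FeSO4 mice lie above all NaCl mice, the FeSO4/PBS mice overlap the NaCl/PBS mice for Ddit3 and Trib3, and Phgdh stays under 5 normalized counts.

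Atf4 (ENSMUSG00000042406, chromosome 15 from 80139372 to 80141745) encodes the factor at the centre of the response. The 3 NaCl/PBS livers had 1185, 1250 and 1257 normalized counts, and the 3 FeSO4/PBS livers 5503, 2684 and 3350. Every FeSO4/PBS mouse was above every NaCl/PBS mouse, and mouse 1 was far above the other two. The rise was 3.13-fold, an LFC of 1.64 (SE 0.20, edgeR adjusted p 1.5e-05), and without FeSO4/PBS mouse 1 the LFC was 1.30, still called.

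Ppp1r15a (ENSMUSG00000040435, chromosome 7 from 45172340 to 45175692) encodes the regulatory subunit through which eIF2 is dephosphorylated again. Its normalized counts were 155.4, 205.7 and 181.1 in NaCl/PBS and 828.5, 1286 and 950.1 in FeSO4/PBS mice. The groups did not overlap and mouse 1 was the lowest of its group here. The rise was 5.66-fold, with an LFC of 2.50 (SE 0.18, edgeR adjusted p 1.4e-07), and it lay between 2.30 and 2.64 with any 1 of the 6 mice left out. The transcripts of Ppp1r15b, the constitutive counterpart, had an LFC of 0.01 (95% interval -0.30 to 0.33).

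The other transcription factors of the panel were not called. Atf5 (ENSMUSG00000038539, chromosome 7 from 44461680 to 44466082), a relative of ATF4 that is likewise controlled by translation, had 6696, 6613 and 8281 normalized counts in NaCl/PBS and 7109, 6136 and 5581 in FeSO4/PBS mice. These overlapped, and the LFC was -0.20 (95% interval -0.59 to 0.19, edgeR adjusted p 0.37). Ddit3 (ENSMUSG00000025408, chromosome 10 from 127124268 to 127132163) encodes CHOP, a C/EBP family factor linked to cell death under lasting stress.

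Ddit3 had 80.6, 57.0 and 77.0 normalized counts in NaCl/PBS mice and 80.6, 38.7 and 35.7 in FeSO4/PBS mice. FeSO4/PBS mouse 1 lay at the top of the control range, and the other two lay below all 3 controls. The LFC was -0.46 (95% interval -1.14 to 0.22, edgeR adjusted p 0.23). Without mouse 1 it was -0.94 with an edgeR adjusted p of 0.017 and it was called lower. The exons of Ddit3 share 4596 of 5579 bases (82.4%) with exons on the other strand, mostly of Mars1. The strand setting of the counts is not given in the sources used here, so the level of Ddit3 is uncertain.

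Trib3 (ENSMUSG00000032715, chromosome 2 from 152179337 to 152191958) encodes a pseudokinase that is induced by ATF4 with CHOP and restrains AKT signalling. It had 228.7, 109.4 and 209.9 normalized counts in NaCl/PBS and 177.4, 123.1 and 132.6 in FeSO4/PBS mice. The groups overlapped, and NaCl/PBS mouse 2 was the lowest of all 6. The LFC was -0.34 (95% interval -0.87 to 0.19, edgeR adjusted p 0.26), and -0.60 with an edgeR adjusted p of 0.025 when that control was left out.

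Nupr1 (ENSMUSG00000030717, chromosome 7 from 126222414 to 126230033), a small stress-induced chromatin protein, had 20.9, 15 and 16.1 normalized counts in NaCl/PBS and 22.2, 9.16 and 12.8 in FeSO4/PBS mice. The ranges overlapped, with an LFC of -0.23 (95% interval -1.40 to 0.93). Sesn2 (ENSMUSG00000028893, chromosome 4 from 132219335 to 132237815) encodes a leucine sensor that restrains mTORC1 and is also a p53 target. It had 145.3, 161.8 and 138.8 normalized counts in NaCl/PBS and 265.1, 161.7 and 196.4 in FeSO4/PBS mice. FeSO4/PBS mouse 2 lay within the control range and the other two above it. The LFC was 0.49 (95% interval -0.03 to 1.00, edgeR adjusted p 0.10).

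The amino acid synthesis genes of the panel had low mRNA levels. Asns (ENSMUSG00000029752, chromosome 6 from 7671667 to 7728461), which makes asparagine, had 12.9, 14 and 10.2 normalized counts in NaCl/PBS and 35.3, 10.2 and 29.3 in FeSO4/PBS mice. FeSO4/PBS mouse 2 was at the control level while the other two were above it, and the LFC was 1.00 (95% interval 0.06 to 1.94, edgeR adjusted p 0.068). Psat1 (ENSMUSG00000024640, chromosome 19 from 15882039 to 15924701), an aminotransferase of serine synthesis, had 26.6, 19.6 and 5.08 normalized counts in NaCl/PBS and 68.5, 23.4 and 47.2 in FeSO4/PBS mice.

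FeSO4/PBS mouse 2 again lay among the controls for Psat1, and the LFC was 1.42 (95% interval 0.12 to 2.72, edgeR adjusted p 0.061). Without that mouse, edgeR called Asns (LFC 1.38, adjusted p 0.0091), Psat1 (LFC 1.74, adjusted p 0.031) and Sesn2 (LFC 0.64, adjusted p 0.046) higher. Other removals lowered the values. Without FeSO4/PBS mouse 1 the LFCs of Asns and Sesn2 were 0.64 and 0.27, and without NaCl/PBS mouse 3 that of Psat1 was 0.99, none called. Psat1 was also called without NaCl/PBS mouse 1 (LFC 1.92, adjusted p 0.042), and with DESeq2. Phgdh (ENSMUSG00000053398, chromosome 3 from 98220484 to 98255047), the first enzyme of serine synthesis, had 0, 2 and 4 reads in NaCl/PBS, 3, 0 and 1 in NaCl/DEX, 0, 2 and 0 in FeSO4/PBS and 5, 2 and 1 in FeSO4/DEX mice. At this depth no difference in Phgdh was detectable.

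**Figure D2:**
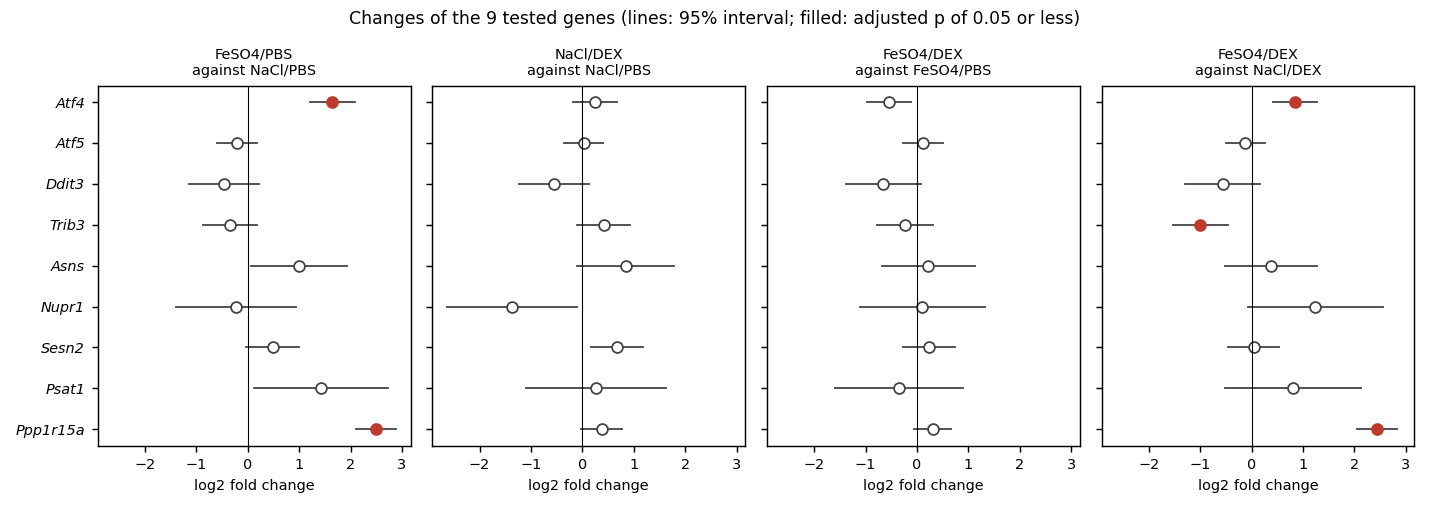
LFCs (horizontal axes, log2 scale) of the 9 tested genes in 4 comparisons, with 95% intervals as lines and calls as filled points. Atf4 and Ppp1r15a are the filled points after FeSO4 with PBS (1.64 and 2.50). Both are filled again after FeSO4 with DEX, where Trib3 is filled to the left of 0, and no point is filled in either DEX comparison.

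Per kb of annotated exon, the levels of the panel spanned a wide range in the control livers. Atf5 led in every group, with 3344 ± 437 normalized counts per kb (SD, n = 3) in NaCl/PBS mice, followed by Atf4 with 518.5 ± 16.7 (SD, n = 3). The ranges of these genes did not overlap in any of the 4 groups, although Atf4 reached 1620 ± 621 per kb (SD, n = 3) against 2916 ± 360 (SD, n = 3) for Atf5 in FeSO4/PBS mice. Ppp1r15a came next in every group. Its 61.5 ± 8.57 per kb (SD, n = 3) in NaCl/PBS mice overlapped the range of Trib3 (53.9 ± 18.9, SD, n = 3), which overlapped that of Sesn2 (32.7 ± 2.61, SD, n = 3).

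In FeSO4/PBS mice, Ppp1r15a had 347.8 ± 80.6 per kb (SD, n = 3) and stood clear of Sesn2 (45.8 ± 11.6) and Trib3 (42.6 ± 8.56), which overlapped each other. Ddit3 followed with 12.8 ± 2.27 per kb in NaCl/PBS mice (SD, n = 3), clear of its neighbours, and overlapped Psat1 in FeSO4/PBS mice. Nupr1, Psat1, Asns and Phgdh held the last places in NaCl/PBS mice with 4.52, 2.91, 1.06 and 0.620 per kb, where each overlapped the next. Exons of Asns and Ddit3 are long in the annotation, with 11709 and 5579 bases, which lowers these values where short transcripts are made.

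Other targets of ATF4 and CHOP were taken from a list of 40 genes, of which 36 were tested and Stc2, Aldh1l2, Pycr1 and Slc7a3 were too low. This list and those of regulators and of the XBP1 and ATF6 arms were chosen with earlier results of these data known. Here and below, their shares beside those of all genes are descriptions and not independent support. FeSO4 raised 21 of the 36 (58.3%) and lowered 2 (5.56%), against 27.2% and 27.3% of all genes. Slc7a11 and Tnfrsf10b, among the 36, passed the filter only through their FeSO4 libraries, so a higher call in either is no support. Tnfrsf10b had 4.32 to 11.9 normalized counts in NaCl/PBS and 24.2 to 36.6 in FeSO4/PBS mice. The median LFC of the 36 was 0.72, which the lower bound used below for Slc7a11 leaves unchanged. Those that rose included factors, secreted hormones, amino acid transporters and genes of autophagy and cell death. Atf3, a stress-induced repressor of the ATF family, rose from 25.0 ± 14.1 to 1321 ± 940 normalized counts (SD, n = 3 each), with an LFC of 5.75 (SE 0.58, edgeR adjusted p 2.5e-06). With 1 mouse left out it ran from 5.06 (FeSO4/PBS mouse 2) to 6.27 (NaCl/PBS mouse 2).

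Gdf15, a hormone released by stressed cells, went from 69.4 ± 27.1 (SD, n = 3) to 2423 ± 1024 normalized counts (SD, n = 3), an LFC of 5.11 (SE 0.48, edgeR adjusted p 1.4e-06). Slc7a11, the cystine importer that feeds glutathione synthesis and is central to ferroptosis defence, had 3, 0 and 1 reads in NaCl/PBS mice and 226, 63 and 42 in FeSO4/PBS mice. All 3 FeSO4/PBS mice were above the controls, and the level was at least 46.0-fold higher against a floor of 3 reads per library. With FeSO4/PBS mouse 1 left out, that bound was at least 23.5-fold higher. The 2 genes that fell were Cebpg, a partner of ATF4 (LFC -0.99, SE 0.12, edgeR adjusted p 9.6e-06), and Slc1a4, a neutral amino acid transporter (LFC -0.85, SE 0.25, edgeR adjusted p 0.010). The call of Slc1a4 was lost without NaCl/PBS mouse 3 (edgeR adjusted p 0.054).

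Among the 10 other targets whose window held the element, 7 rose after FeSO4 and 3 were not called. Among the 26 without it 14 rose, 2 fell and 10 were not called. Of all tested genes, 27.2% rose and 27.3% fell. Whether targets with and without the element differ was not tested. The 7 include Slc7a11, which passed the filter only through FeSO4 mice. Chac1, which degrades glutathione, went from 103.0 ± 39.3 (SD, n = 3) to 1223 ± 255 normalized counts (SD, n = 3), an LFC of 3.58 (SE 0.26, edgeR adjusted p 1.5e-07). Fgf21, a liver hormone of fasting and stress, had an LFC of 3.61 (SE 0.73, edgeR adjusted p 0.00088), which was 2.97 without FeSO4/PBS mouse 1 and 4.47 without NaCl/PBS mouse 2. Gpt2, Gars1 and Aars1 rose by smaller LFCs of 0.74, 0.73 and 0.44. The LFC of Aars1 was 0.24 without FeSO4/PBS mouse 1, and its call was lost without that mouse, NaCl/PBS mouse 1 or NaCl/PBS mouse 3 (largest edgeR adjusted p 0.085). Vldlr, Ddr2 and Pck2 had LFCs of 0.52, 0.18 and -0.26 and were not called, like Ddit3 itself.

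The genes that set the phosphorylation of eIF2 and act on it were described through a list of 19 regulators. FeSO4 raised 10 of them (52.6%) and lowered 4 (21.1%), against 27.2% and 27.3% of all genes, with a median LFC of 0.30. Of the 4 eIF2 kinases, Eif2ak4 (GCN2, the sensor of uncharged tRNA) rose by an LFC of 1.19 (SE 0.18, edgeR adjusted p 0.00010) and Eif2ak3 (PERK, the ER sensor) by 0.91 (SE 0.19, edgeR adjusted p 0.00097). Eif2ak2 (PKR, the sensor of double-stranded RNA) fell by 0.68 (SE 0.14, edgeR adjusted p 0.00083), and Eif2ak1 (HRI, the haem-regulated kinase) had an LFC of 0.15 (95% interval -0.06 to 0.35) and was not called. Eif2b3, a subunit of the exchange factor that phosphorylated eIF2 inhibits, rose by 1.10 (SE 0.23), or 0.71 without FeSO4/PBS mouse 1. Dele1, which relays mitochondrial stress, and Eif2d, an initiation factor, each had an LFC of -0.51 and were called lower.

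Genes of the XBP1 and ATF6 arms, the other arms of the unfolded protein response, formed a list of 20 with ER chaperones, sensors and factors of ER-associated degradation. After FeSO4, 5 rose (25%) and 1 fell (5%), against 27.2% and 27.3% of all genes, so the share that rose was near the background. The median LFC was 0.13. Hspa5 (BiP), the main ER chaperone, rose by an LFC of 1.05 (SE 0.18, edgeR adjusted p 0.00024), Dnajb9 by 0.97 and Xbp1 by 0.85, or 0.56 and still called without FeSO4/PBS mouse 1. Pdia4, a disulfide isomerase, was called lower with an LFC of -0.56, a call lost without FeSO4/PBS mouse 1, NaCl/PBS mouse 1 or NaCl/PBS mouse 2 (largest adjusted p 0.085). With library size alone, 3 of these 20 were higher and 6 lower.

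**Figure D3:**
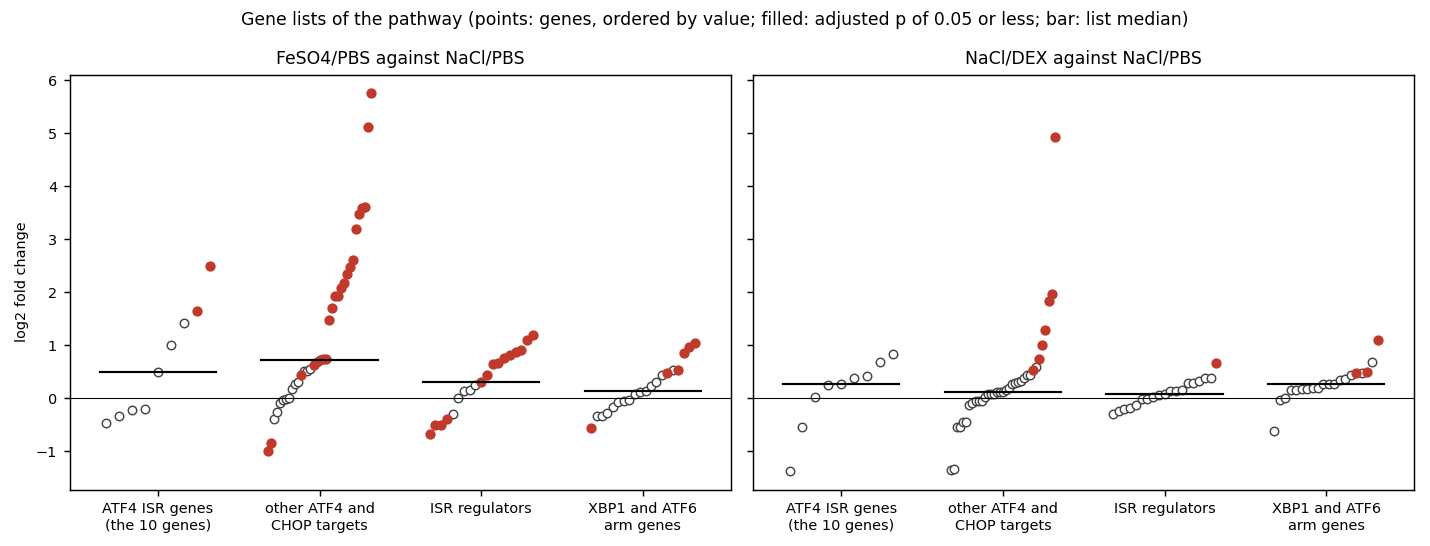
LFCs (vertical axes, log2 scale) after FeSO4 (left) and after DEX in NaCl mice (right), where each point is a gene, calls are filled and the bar is the list's median. Slc7a11 is left out because its controls had 3 reads or fewer. After FeSO4 the medians are 0.49 for the panel, about 0.7 for the other targets, 0.30 for the regulators and 0.13 for the genes of the XBP1 and ATF6 arms.

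DEX given to NaCl mice called none of the 9 genes with edgeR, 0 higher and 0 lower, where 6.5% of all genes were higher and 7.15% lower. At an unadjusted p under 0.05 there was 1 higher gene, Sesn2, and 1 lower gene, Nupr1, and DESeq2 called 1 higher and 0 lower. Over all 13857 genes, 1645 were higher and 2073 lower at that p, and DESeq2 called 1158 and 1065. This comparison shares its NaCl/PBS controls with the one after FeSO4. Sesn2 had 209.3, 272.7 and 229.6 normalized counts in NaCl/DEX mice, all above the 3 controls. The LFC was 0.68 (95% interval 0.17 to 1.18, edgeR adjusted p 0.077), and DESeq2 called it with an adjusted p of 0.038.

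Nupr1 had 2.15, 6.58 and 11.1 normalized counts in NaCl/DEX mice, all below the controls. The values rest on 2, 7 and 11 reads, and the LFC was -1.37 (95% interval -2.64 to -0.10, edgeR adjusted p 0.15). Atf4 had 1563, 1457 and 1355 normalized counts, also above all 3 controls, but the difference was small (LFC 0.24, 95% interval -0.18 to 0.67, edgeR adjusted p 0.48). This interval draws on the spread in all 4 groups. With the libraries of this comparison alone, edgeR called Atf4 higher (LFC 0.26, adjusted p 0.049). For Ppp1r15a the NaCl/DEX mice had 199.7, 284.9 and 216.5 normalized counts, which overlapped the controls (LFC 0.38, 95% interval -0.02 to 0.77). The remaining 5 had LFCs from -0.55 (Ddit3) to 0.84 (Asns), and the median over the 9 was 0.26 against -0.02 over all genes.

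Some other targets were called after DEX in NaCl mice. Of the 36, 7 rose (19.4%, against 6.5% of all genes) and 0 fell by edgeR (against 7.15%), with 2 lower at an unadjusted p under 0.05 and 0 by DESeq2. With any 1 of the 6 mice left out, 4 to 6 were higher, and 4 without NaCl/DEX mouse 2 or NaCl/PBS mouse 3. Over all genes, these fits called 606 to 784 higher, against 901 with all mice. The largest response was that of Ddit4 (REDD1), an inhibitor of mTORC1 and also a known glucocorticoid target, which went from 99.6 ± 4.08 to 3028 ± 194 normalized counts (SD, n = 3 each), an LFC of 4.93 (SE 0.25, edgeR adjusted p 3.7e-08). Slc38a2 (SNAT2), a transporter of neutral amino acids, followed with 1.97 (SE 0.17, edgeR adjusted p 5.2e-06). Gdf15 had an LFC of 1.84 (SE 0.45, edgeR adjusted p 0.015), which was 1.09 without NaCl/DEX mouse 2, and its call was lost without that mouse or NaCl/PBS mouse 2 or 3 (largest adjusted p 0.088).

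Of the 19 regulators only Eif2ak4 (5.26%, against 6.5% of all genes) was called by edgeR after DEX (LFC 0.66, SE 0.18, adjusted p 0.027), and that call was lost without any 1 of 5 of the 6 mice, NaCl/PBS mouse 3 being the exception. Of the 20 genes of the XBP1 and ATF6 arms, 3 rose (15%, against 6.5% of all genes), none of them a chaperone: Herpud1, a factor of ER-associated degradation, by an LFC of 1.09 (SE 0.12, edgeR adjusted p 4.5e-05), Ern1 (IRE1, an ER stress sensor) by 0.50 and Edem1, also of ER-associated degradation, by 0.47. Ern1 lost its call when any 1 of the 6 mice was left out, and Edem1 without NaCl/DEX mouse 1 or 3 or NaCl/PBS mouse 2 or 3. For these lists, DESeq2 called 3 regulators and 5 genes of the XBP1 and ATF6 arms higher.

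DEX given after FeSO4 called none of the 9 genes, and 0 of the 13857 genes in either direction (0% higher and 0% lower) with edgeR. At an unadjusted p under 0.05 there were 444 higher and 456 lower genes over all, and DESeq2 called 5 and 4. Of the 9 genes, 0 were higher and 1 lower at that unadjusted p, and DESeq2 called 0. The gene was Atf4, with 3013, 2527 and 2350 normalized counts in FeSO4/DEX against 5503, 2684 and 3350 in FeSO4/PBS mice. The ranges overlapped, and the LFC was -0.55 (SE 0.20, 95% interval -0.98 to -0.12, edgeR adjusted p 0.72), or -0.22 without FeSO4/PBS mouse 1.

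Ppp1r15a had 1296, 1369 and 1139 normalized counts with DEX against 828.5, 1286 and 950.1 without it, which overlapped, and the 95% interval of its LFC of 0.31 ran from -0.05 to 0.67. Ddit3 had 37.7, 27.2 and 33.3 normalized counts in FeSO4/DEX mice, overlapping the FeSO4/PBS mice, and an LFC of -0.66 (95% interval -1.39 to 0.07), or -0.20 without FeSO4/PBS mouse 1. Sesn2 had 181.7, 202.5 and 349.6 normalized counts, and the high mouse 3 set the sign of its LFC of 0.23, which was -0.13 without it. The remaining 5 had LFCs from -0.35 (Psat1) to 0.22 (Asns). The median over the 9 was 0.10, and 0.00 over all genes. None of the pathway list genes was called by edgeR, and at an unadjusted p under 0.05 there were 4 higher and 1 lower of the other targets, 0 and 0 of the regulators, and 1 and 1 of the XBP1 and ATF6 arms. DESeq2 called 1 of the other targets higher.

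FeSO4 mice and NaCl mice that had both received DEX differed in 3 of the 9 genes. Atf4 and Ppp1r15a were higher (22.2%, against 22.4% of all genes) and Trib3 was lower (11.1%, against 20.9%). Ppp1r15a rose 5.42-fold (LFC 2.44, SE 0.18, edgeR adjusted p 3e-07) and Atf4 by 1.80-fold (LFC 0.85, SE 0.20, edgeR adjusted p 0.0036), with no overlap between the groups for either. The LFC of Atf4 was 0.74 without FeSO4/DEX mouse 1, the lowest value with 1 mouse left out, and all 6 such fits called it.

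Trib3 had 253.3, 273.6 and 208.4 normalized counts in NaCl/DEX and 135.3, 133.2 and 99.9 in FeSO4/DEX mice. Every FeSO4/DEX mouse lay below every NaCl/DEX mouse, and the fall was 1.99-fold (LFC -1.0, SE 0.25, edgeR adjusted p 0.0053), between -1.10 and -0.90 with 1 mouse left out. Trib3, which ATF4 is known to activate, was thus lower in the comparison in which the Atf4 mRNA was higher. Of the remaining 6 genes, Nupr1 had the largest LFC in size (1.24, 95% interval -0.08 to 2.56). Of the 36 other targets 17 were higher (47.2%) and 2 lower (5.56%), against 22.4% and 20.9% of all genes. Slc7a11 and Tnfrsf10b, in these 36, passed the filter only through FeSO4 mice. Of the 19 regulators 8 were higher (42.1%) and 3 lower (15.8%). With any 1 of the 6 mice left out, 5 to 7 were higher (5 without FeSO4/DEX mouse 1) and 1 to 4 lower (1 without NaCl/DEX mouse 1). Of the 20 genes of the XBP1 and ATF6 arms 3 were higher and 3 lower (15% each), below both background shares. Neutrophil and Kupffer cell markers differed here as well, with 5 of 5 tested higher and 4 of 6 lower.

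The difference between the DEX response in FeSO4 mice and that in NaCl mice was tested as an interaction, since a call in one comparison and not in another does not show a difference. edgeR called 0 of the 9 genes higher and 0 lower, with 2.99% and 3.2% of all genes, and DESeq2 called 0 and 0. At an unadjusted p under 0.05 there were 1478 higher and 1352 lower genes over all, and DESeq2 called 523 and 735. Of the 9 genes, 0 were higher and 1 lower at that unadjusted p. The lower gene was Atf4, with a difference of -0.79 between the LFCs (SE 0.28, edgeR adjusted p 0.12). It was -0.48 without FeSO4/PBS mouse 1 and -1.0 (edgeR adjusted p 0.025) without FeSO4/PBS mouse 2. For Ppp1r15a the difference was -0.06 with a 95% interval of -0.60 to 0.47.

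Among the other targets, 5 of 36 had a lower DEX response after FeSO4 (13.9%, against 3.2% of all genes), and among the genes of the XBP1 and ATF6 arms 1 of 20 (5%). The 5 became 3 without FeSO4/DEX mouse 1, NaCl/PBS mouse 1 or 3, or any 1 NaCl/DEX mouse. None of the 19 regulators was called by edgeR. At an unadjusted p under 0.05, 0 were higher and 3 lower, and DESeq2 called 0 and 1. Ddit4 differed most, with 907 ± 217 normalized counts in FeSO4/PBS mice and 2362 ± 795 with DEX (SD, n = 3 each), an LFC of 1.38 against 4.93 in NaCl mice. FeSO4 with PBS had itself raised Ddit4 by an LFC of 3.19 (SE 0.23, edgeR adjusted p 1.5e-07). Slc38a2 followed the same order, with LFCs of 0.46 after FeSO4 and 1.97 in NaCl mice, and FeSO4 with PBS had raised it by 2.60.

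**Figure D4:**
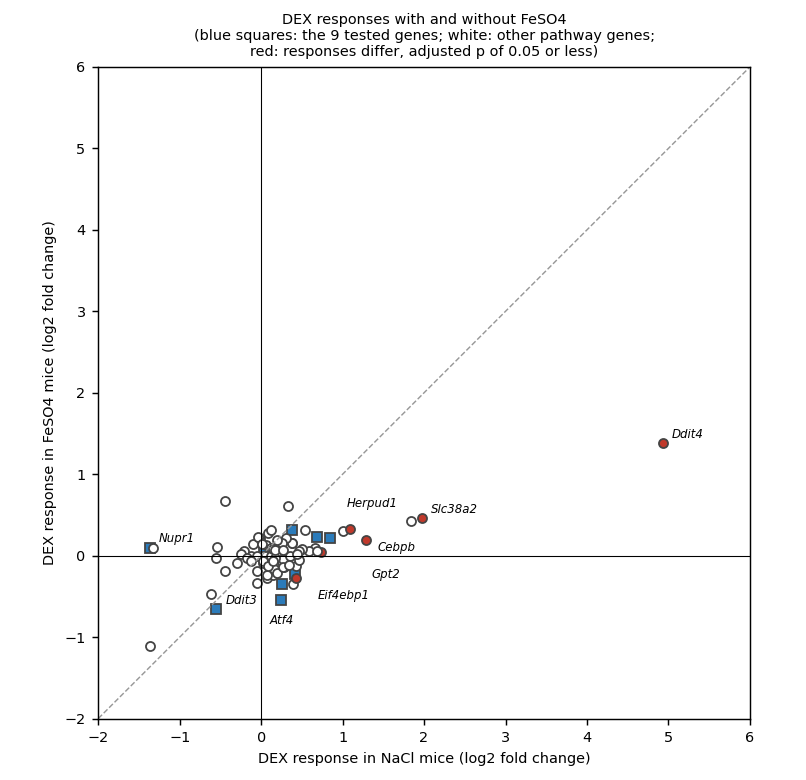
DEX response in NaCl mice (horizontal axis) against that in FeSO4 mice (vertical axis), both as LFC on a log2 scale, for the 9 tested genes (blue squares) and the other pathway genes (circles), with equal responses on the dashed line. Red circles are the 6 genes whose responses differed, all below the line and led by Ddit4 (4.93 and 1.38). Slc7a11 is left out because both NaCl groups had 3 reads or fewer.

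As a description across the 12 livers, which share the 4 treatments, Pearson's r of log2 normalized levels with Atf4 was 0.836 for Ppp1r15a, 0.685 for Psat1, 0.605 for Asns, 0.360 for Sesn2 and 0.217 for Nupr1. It was -0.230 for Atf5, -0.246 for Ddit3 and -0.423 for Trib3. Among 8958 genes with a mean of at least 100 normalized counts, those most like Atf4 were Eif3f (0.984), Gars1 (0.983), Wdr74 (0.982), Arhgdia (0.981) and Cinp (0.979), all n = 12. Gars1, a glycyl-tRNA synthetase, is also one of the other ATF4 targets listed.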

How the data were processed

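Per the labels and the study's methods, liver RNA of 12 mice was made into stranded mRNA libraries, sequenced as single-end reads, checked with FastQC and mapped to mm39 with STAR 2.7.10b, which also counted reads per gene. The authors deposited raw counts for 55414 Ensembl genes without normalization. The strand column they took is not given in the sources used here.

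From these counts, edgeR 4.0.16 in R 4.3.3 fitted all 12 libraries in 1 quasi-likelihood model of 4 group means, after filterByExpr kept 13857 genes and TMM factors were computed. P-values were adjusted over all tested genes, and calls had an adjusted p of 0.05 or less. The edgeR LFCs used a prior count of 0.125. SEs and 95% intervals came from the quasi-likelihood F. Normalized counts are TMM-scaled to the mean effective library size of 19810818, and levels per kb are divided by the exon union of GENCODE on GRCm39, a later release than the authors'. The model was tested on simulated data.

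The members and the gene lists were chosen with earlier results of these data known, and the promoter letters with them. List genes named by value are the 3 largest called changes in each direction for each list, in the FeSO4 comparison and in the DEX comparison of NaCl mice. Genes with the promoter element, kinases, Ppp1r15b and genes of the interaction are named besides, after their values had been seen. Alternatives were DESeq2 1.42.0, its size factors, library size alone, no filter, at least 10 reads in every library, the libraries of a comparison alone, a minimum LFC of 1, the replicate number as a block, and each mouse left out. Each library is 1 mouse, and the p-values rest on the spread between mice within groups. That spread is 1 estimate per gene over all 4 groups, moderated across genes, and not that of the compared groups alone.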

Additional observations from a re-analysis of the deposited data

Results flagged for a closer look

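None of the 10 genes met a rule for a closer look, whereas 6 listed pathway genes did, because their DEX response differed between FeSO4 and NaCl mice in edgeR's interaction test over 13857 genes. Ddit4 differed by -3.55 on the log2 scale (SE 0.31, adjusted p 1.9e-05) and Slc38a2 by -1.50 (SE 0.23, adjusted p 0.0016). Cebpb, a C/EBP partner of ATF4, differed by -1.10 (SE 0.23, adjusted p 0.011) and Herpud1 by -0.77 (SE 0.17, adjusted p 0.016). Eif4ebp1, an inhibitor of cap-dependent translation, differed by -0.70 (SE 0.19, adjusted p 0.048) and Gpt2, an alanine aminotransferase, by -0.69 (SE 0.19, adjusted p 0.048). Leaving out any 1 of the 12 mice kept the calls of Ddit4, Slc38a2, Cebpb and Herpud1. Eif4ebp1 was not called without FeSO4/DEX mouse 1 or 3, any NaCl/DEX mouse, or NaCl/PBS mouse 1 or 3 (largest adjusted p 0.11). Gpt2 was called only without FeSO4/DEX mouse 3, FeSO4/PBS mouse 1 or FeSO4/PBS mouse 3, with a largest adjusted p of 0.12. FeSO4 with PBS alone had raised each of the 6, by LFCs of 3.19, 2.60, 2.08, 0.54, 1.92 and 0.74 in the order above.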

How the results depend on the processing

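With no filter on low counts, edgeR called 4 of the 9 genes higher after FeSO4, 1 higher after DEX in NaCl mice, 1 lower after DEX in FeSO4 mice (Atf4, adjusted p 0.016) and 1 lower in the interaction (Atf4, LFC -0.81, adjusted p 0.0019). Counts of calls over all genes moved in this setting too, 4 of them, while 6 stayed the same. Whether the new calls go beyond that general shift was not tested. DESeq2 called 1 higher after DEX in NaCl mice (Sesn2), and the libraries of that comparison alone gave 2 (Atf4 and Sesn2). With a minimum LFC of 1, FeSO4 with DEX left 1 higher and 0 lower, and 7 counts of calls over all genes moved while 3 stayed the same. Library size alone gave 3 lower after FeSO4, and reversed the sign of 4 uncalled values: Atf5 after DEX in NaCl mice (-0.12), Sesn2 between DEX groups (-0.16), and Ddit3 (0.03) and Ppp1r15a (0.05) in the interaction. The causes were not tested.

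Leaving out 1 mouse gave 2 to 5 higher and 0 to 1 lower genes after FeSO4 (5 without FeSO4/PBS mouse 2, and 1 lower without FeSO4/PBS mouse 1 or NaCl/PBS mouse 2), and 0 to 1 lower in the interaction. It reversed the sign of uncalled values only, with ranges of -0.67 to 0.03 for Nupr1 after FeSO4; -0.10 to 0.17 for Atf5 and -0.36 to 0.77 for Psat1 after DEX in NaCl mice. After DEX in FeSO4 mice these were -0.11 to 0.22 for Atf5, -0.16 to 0.56 for Asns, -0.64 to 0.52 for Nupr1, -0.13 to 0.43 for Sesn2 and -0.88 to 0.04 for Psat1. Between DEX groups they were -0.33 to 0.01 for Atf5 and -0.34 to 0.22 for Sesn2. In the interaction they were -0.14 to 0.21 for Atf5, -0.32 to 0.34 for Ddit3, -1.14 to 0.01 for Psat1 and -0.24 to 0.13 for Ppp1r15a.

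The replicate numbers were not taken as pairs, and the labels do not say whether they are. Deviations of same-numbered mice correlated between -0.0919 and 0.129, over 0.1 in 2 of 18 pairs. Both lie between NaCl/PBS and NaCl/DEX, where same-numbered mice gave 0.129, 0.109 and 0.052 and differently numbered mice at most 0.030. Same-numbered FeSO4/PBS and FeSO4/DEX mice gave -0.070, -0.068 and -0.025. Differently numbered mice of these groups also passed 0.1, with 0.111 for FeSO4/PBS mouse 1 and FeSO4/DEX mouse 2. A fit with the replicate number as a block gave 2 higher and 0 lower genes after FeSO4 and changed no call of the 9 genes, and called 3 instead of 5 other targets in the interaction. Of the counts of calls in the 3 other lists, 373 were within 1.5 times the value reported and 77 were not. The calls of Atf4 and Ppp1r15a after FeSO4 were kept in all alternatives run. Psat1 and Nupr1 were not tested with at least 10 reads in every library.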
